A study of Mus musculus with 23 samples.

Results

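The Notch1 effect described here is the difference between tumours without Notch1 and tumours with 1 copy of it, averaged over 2 types of mouse oral tumour. It was estimated in 18 of the 23 tumours of the study. All came from C57BL/6 mice and were grown for 21 days. The KHR type gave 5 KHR-N-/- and 4 KHR-N+/- tumours, and the KR type gave 4 KR-N-/- and 5 KR-N+/- tumours, so that 9 N-/- tumours were set against 9 N+/- tumours. N-/- marks loss of both Notch1 copies and N+/- loss of 1 copy. KHR and KR are the tumour types as the labels spell them, and the labels do not expand these codes. Every tumour of both types in this comparison carried a Notch1 change. The 5 KHR tumours with intact Notch1 were not part of the model, and no KR tumours with intact Notch1 were analysed here. The driver of the Notch1 deletion, the number of clones or animals, and the host were not given in the sources used here. Messenger RNA was measured on 1 Illumina MouseRef-8 v2 bead array per tumour.

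Notch1 encodes a membrane receptor that is cleaved when it meets a ligand on a neighbouring cell. The cleaved inner part enters the nucleus, binds the DNA-binding protein RBPJ and turns on target genes such as those of the Hes and Hey families. In skin and oral epithelium the pathway helps basal cells, which sit on the basement membrane, to leave it and start to differentiate. Loss of Notch1 in stratified epithelia is known from mice and from human squamous cancers.

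Before normalization the mean intensity was 35.7 units lower in N-/- tumours within tumour type (exact permutation test of Notch1 labels within type, two-sided, p = 0.206), and 164 more probes were detected (exact permutation p = 0.5). With 15876 permutations the smallest p this design allows is 6.3e-05. Mean intensity ran from 142.4 to 366.4, detected probes from 10353 to 12654 and the average number of beads behind a probe from 27 to 40.4. These bead numbers fell into 3 bands, seen after the data were examined, each with tumours of all 4 groups. With the band as a block 1862 genes passed. Within the bands of 5, 6 and 7 arrays, from the fewest beads to the most, the Notch1 difference was -1.32, -1.13 and -1.86 on the log2 scale. Precision is limited by how many arrays each group had. Krt5, Krt14, Krt6a, Trp63 and Cdh1, which mark squamous epithelium, were detected on 18 of 18 arrays, whereas the epithelial gene Epcam was detected on 0.

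Levels below are normalized log2 intensities. Differences are N-/- minus N+/- on the log2 scale and pooled over both tumour types unless a type is named. Adjusted p-values are from limma over all 9434 detected genes (Benjamini-Hochberg, threshold 0.05), and the labels do not say which tumours came from separate animals, so p-values measure only the spread between these tumours.

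Notch1 had levels of 5.89, 5.85, 5.80, 5.46 and 5.75 in KHR-N-/- tumours, against 6.72, 7.65, 5.76 and 7.54 in KHR-N+/- tumours. In KR-N-/- tumours it was at 6.17, 6.63, 5.98 and 5.68, against 8.01, 7.73, 8.27, 7.58 and 7.71 in KR-N+/- tumours. The KR groups did not overlap. In the KHR type 1 array went against its label, since the library labelled KHR-N+/- replicate 3 (5.76) lay inside the range of the KHR-N-/- tumours. The pooled difference was -1.45 (SE 0.20, adjusted p = 6.48e-05), or 2.74-fold lower in N-/- tumours, and it was -1.65 without that library. Only 1 probe reads Notch1, and its place relative to the deleted part of the gene was not given in the sources used here.

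Further tumours stood apart from their groups. On the leading principal component KHR-N+/- replicate 1 was at -33.44, against -15.69 to -8.08 for the other KHR-N+/- arrays, and KR-N+/- replicate 1 had the fewest detected probes (10353). All tumours are included under their labels below. Of the 30 genes with the largest changes, the library labelled KHR-N+/- replicate 3 was inside the range of the KHR-N-/- tumours on 18 and nearer to their mean than to that of the other KHR-N+/- tumours on 20. Without this library all 30 kept their direction and passed, with adjusted p-values up to 0.00469. Leaving out an N+/- library that lies toward the N-/- tumours widens the differences, so this is no independent check.

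Loss of Notch1 went with a broad shift in the tumours of both types. Genes of the basal epithelial layer, its anchoring structures and the collagen matrix were higher in N-/- tumours, and genes of the differentiated mucosal surface were lower. The gene lists behind this summary were chosen with earlier results of these data known. That of the mucosal surface was written with results of KR tumours in view, so its direction is no independent evidence. Of 9434 genes 1965 (20.8%) passed, 1107 (11.7%) higher and 858 (9.09%) lower in N-/- tumours, and 98 differed by at least 1 on the log2 scale, 40 higher and 58 lower. In these bulk samples, fewer cells of a type and less RNA per cell cannot be told apart.

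The number of calls depended on the scaling. When arrays were scaled to a common median in place of quantile normalization, 73 genes passed, 15 higher and 58 lower. All 73 were among the 1965, and all 1965 kept their direction (854 of them at an unadjusted p under 0.05). The share of calls that were higher was 20.5% with median scaling and 56.3% with quantile normalization, and the median standard error over genes was 0.183 and 0.096 in the same order. The calls also have a soft edge, with Mgst1, Rrp12 and Trappc2 just inside the threshold (adjusted p = 0.0498) and Zfp277, Ep300 and Fbxo33 just outside it (0.05, 0.0501 and 0.0501).

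Both tumour types contributed to the pooled effect. Of the 1965 genes 1957 differed in the same direction in both types, and 1735 (88.7%) of these had the larger difference in KR tumours. The model averages both types, which share no arrays, so this count describes how the estimate was made up. Over all 9434 genes the differences in KHR and KR tumours correlated with Pearson's r of 0.679 and Spearman's rho of 0.576, a description across genes, which are not independent replicates. The correlation was 0.560 without KHR-N+/- replicate 1. The 200 genes that rose most in KR tumours included 191 that were also higher in KHR-N-/- than in KHR-N+/- tumours, with a median KHR-type difference of 0.56, and of the 200 that fell most 188 were also lower, with a median of -0.54. Ranked by the KHR-type difference instead, 183 of the 200 largest rises and 194 of the 200 largest falls went the same way in KR tumours. Of all 9434 genes 69.2% differed in the same direction in both types. The spread of the differences was wider in KR tumours (SD over genes 0.39) than in KHR tumours (0.23).

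**Figure D1:**
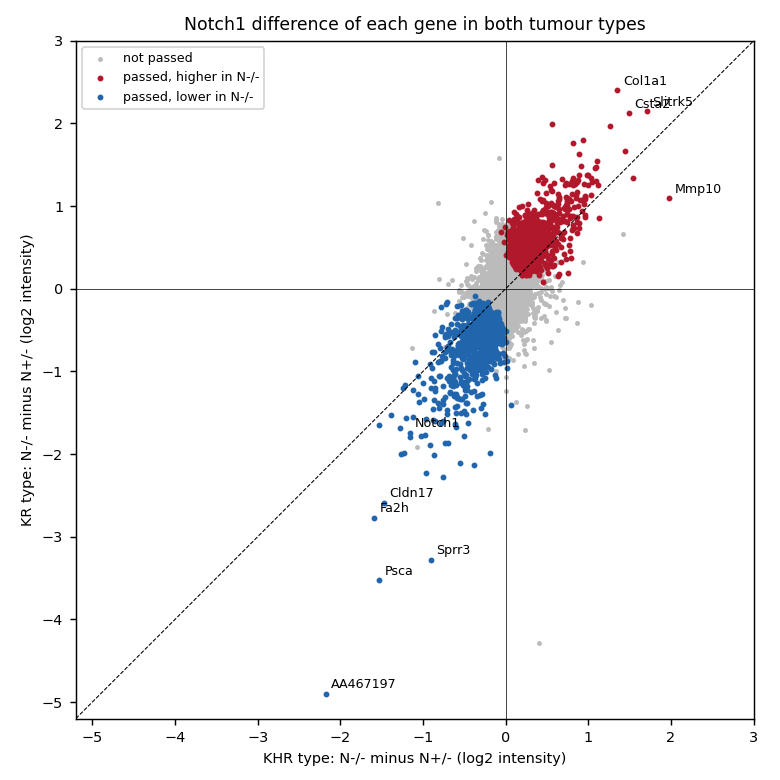
Each point is 1 of 9434 genes, with its N-/- minus N+/- difference (log2 intensity) in KHR-type tumours on the horizontal axis and in KR-type tumours on the vertical axis. Red and blue points passed the pooled test as higher and lower in N-/- tumours, grey points did not, and the dashed line marks equal differences. The differences in both types correlate (Pearson's r 0.679), and most coloured points lie farther from 0 on the KR axis than on the KHR axis.

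A test of the interaction asked where the Notch1 difference itself was unlike between tumour types. It called 0 of 9434 genes (0%; limma, smallest adjusted p = 0.118), with 1073 genes (11.4%) at an unadjusted p under 0.05, which does not show that the types respond alike. With the authors' processed values 11 genes passed. Among genes that passed the pooled test, the 5 with the smallest interaction p were Sprr3, Slc2a9, Cidea, H2-T23 and Uchl3 (each at 0.118). Cidea, a lipid droplet protein, was at 8.17 ± 0.29 over the 5 KHR-N-/- tumours and 8.57 ± 0.13 over the 4 KHR-N+/- tumours (± SD). In the KR type it was 7.46 ± 0.20 over the 4 KR-N-/- tumours and 8.93 ± 0.26 over the 5 KR-N+/- tumours (± SD). H2-T23, a class I histocompatibility gene, differed by -0.29 in KHR and -1.28 in KR tumours, and Uchl3, a deubiquitinating enzyme, by -0.39 and -1.23. Slc2a9, a urate transporter, differed by -0.06 in KHR tumours and 0.69 in KR tumours, but it was detected on only 1 of 5 KR-N+/- arrays.

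The largest rise was that of Slitrk5, a membrane protein known from neurons. Its levels were 6.70, 7.26, 5.64, 6.56 and 7.04 in KHR-N-/- tumours, against 4.43, 4.83, 5.75 and 4.72 in KHR-N+/- tumours. In KR-N-/- tumours they were 9.06, 9.19, 8.56 and 8.71, against 6.79, 6.92, 6.82, 6.19 and 6.94 in KR-N+/- tumours. The KR groups were fully apart, and the KHR groups overlapped only through the library labelled KHR-N+/- replicate 3. The pooled difference was 1.93 (SE 0.20, adjusted p = 8.25e-06), or 3.80-fold, with the gene detected on 3 of 4 KHR-N+/- arrays.

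Csta2, a stefin that inhibits cysteine proteases, was at 7.26, 8.46, 7.74, 8.15 and 8.40 in KHR-N-/- tumours, against 5.83, 5.95, 8.01 and 6.23 in KHR-N+/- tumours. KR-N-/- tumours had 7.82, 8.06, 7.64 and 7.50, against 4.79, 5.79, 6.53, 5.60 and 5.46 in KR-N+/- tumours. Here too the library labelled KHR-N+/- replicate 3 alone reached the N-/- range. Csta2 rose by 1.81 (SE 0.26, adjusted p = 9.99e-05) and by 2.06 without that library. Stefins form a family of near-identical copies, so its probe may read more than 1 of them.

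Prss35, a member of the serine protease family, had 7.06, 8.11, 7.75, 7.53 and 8.00 in KHR-N-/- tumours, against 5.23, 6.60, 6.79 and 6.38 in KHR-N+/- tumours. The KR-N-/- levels were 7.31, 7.12, 7.32 and 7.55, against 6.59, 5.81, 5.76, 5.16 and 4.95 in KR-N+/- tumours. No N-/- tumour overlapped the N+/- tumours of its type. The pooled rise was 1.55 (SE 0.21, adjusted p = 5.32e-05).

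Collagen genes were among the 15 largest rises. Col1a1, a chain of fibrillar collagen I, was at 8.32, 9.39, 8.79, 9.23 and 9.80 in KHR-N-/- tumours, against 6.77, 7.68, 8.21 and 8.36 in KHR-N+/- tumours. It was at 8.59, 9.01, 9.29 and 8.87 in KR-N-/- tumours, against 6.57, 6.84, 6.79, 6.14 and 6.33 in KR-N+/- tumours. The KHR groups touched by a narrow margin and the KR groups were more than 1 log2 unit apart. Col1a1 rose by 1.88 (SE 0.23, adjusted p = 2.87e-05).

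Col6a1, a chain of the microfibrillar collagen VI, had 9.01, 9.91, 9.39, 9.78 and 10.51 in KHR-N-/- tumours, against 7.57, 8.44, 8.89 and 8.96 in KHR-N+/- tumours. KR-N-/- tumours had 9.45, 9.67, 9.88 and 9.51, against 7.39, 8.26, 7.96, 7.48 and 7.18 in KR-N+/- tumours. The groups did not overlap in either type, and the rise was 1.62 (SE 0.21, adjusted p = 4.27e-05), with 1.49 for the other probe of the gene.

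Mmp10, a stromelysin that cuts matrix proteins, was at 6.15, 8.27, 6.56, 7.53 and 9.09 in KHR-N-/- tumours, against 4.50, 4.70, 7.45 and 5.52 in KHR-N+/- tumours. Its levels in KR-N-/- tumours were 6.21, 6.37, 6.27 and 5.97, against 4.59, 5.02, 5.12, 4.99 and 5.84 in KR-N+/- tumours. The highest KHR-N+/- value again belonged to the library labelled replicate 3. Mmp10 rose by 1.53 (SE 0.38, adjusted p = 0.00665) but did not pass with median scaling (adjusted p = 0.161).

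The 9 other genes of the 15 largest rises were Mmp9 (1.44), Crabp1 (1.36), Col7a1 (1.33), Has3 (1.29), Col5a1 (1.28), Col26a1 (1.27), Col6a2 (1.27), Ddah1 (1.25) and Mmp13 (1.20). Mmp9 is a gelatinase and Mmp13 a collagenase. Crabp1 binds retinoic acid in the cytoplasm, Has3 makes hyaluronan, and Ddah1 breaks down an inhibitor of nitric oxide synthesis. Probes disagreed for Mmp13, whose other probes gave 0.06 and 0.48, and for Col7a1, whose other probe gave 0.66. Col26a1 was detected on 3 of 5 KHR-N-/-, 2 of 4 KHR-N+/-, 4 of 4 KR-N-/- and 1 of 5 KR-N+/- arrays. With median scaling 6 of the 15 largest rises and 14 of the 15 largest falls passed, and all 30 kept their direction. Among the rises that did not pass there, Col7a1 had an adjusted p of 0.0506, Col6a1 of 0.0516 and Col5a1 of 0.0656.

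The largest fall was that of AA467197, a gene expressed in mucosal epithelium. Its levels were 9.41, 9.07, 7.48, 7.48 and 7.48 in KHR-N-/- tumours, against 10.62, 10.53, 9.48 and 10.80 in KHR-N+/- tumours. In KR-N-/- tumours they were 6.00, 4.87, 6.64 and 5.00, against 10.54, 10.66, 10.11, 10.13 and 11.20 in KR-N+/- tumours. The groups were apart in both types, and the KR-N-/- levels were the lowest of all. The gene fell by 3.54 (SE 0.42, adjusted p = 2.11e-05), or 11.6-fold.

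Psca, a surface antigen tethered by a lipid anchor, was at 9.43, 9.75, 8.54, 8.26 and 7.78 in KHR-N-/- tumours, against 10.21, 11.04, 9.37 and 10.54 in KHR-N+/- tumours. KR-N-/- tumours had 8.58, 7.29, 6.99 and 6.25, against 10.93, 10.68, 10.79, 10.28 and 11.34 in KR-N+/- tumours. The KHR groups overlapped and the KR groups did not. Psca fell by 2.53 (SE 0.36, adjusted p = 8.2e-05).

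Fa2h, which adds a hydroxyl group to fatty acids of sphingolipids, was at 4.35, 4.56, 4.96, 4.60 and 4.75 in KHR-N-/- tumours, against 6.996, 6.35, 4.90 and 6.70 in KHR-N+/- tumours. KR-N-/- levels were 4.82, 4.35, 4.86 and 6.42, against 7.97, 7.61, 7.81, 8.76 and 7.27 in KR-N+/- tumours. The N-/- tumours lay near the low end of the array's range, apart from KR-N-/- replicate 4, and the gene was detected on 7 of the 9. Fa2h fell by 2.18 (SE 0.30, adjusted p = 5.32e-05), and the difference was -2.43 without the library labelled KHR-N+/- replicate 3.

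Sprr3, a small proline-rich protein of the cornified envelope in mucosa, had 10.53, 10.38, 9.51, 10.34 and 9.25 in KHR-N-/- tumours, against 10.62, 11.59, 10.97 and 10.45 in KHR-N+/- tumours. It had 8.56, 7.74, 9.29 and 8.11 in KR-N-/- tumours, against 11.82, 10.98, 11.78, 11.65 and 12.26 in KR-N+/- tumours. The KHR groups overlapped, whereas the KR groups were over 1 log2 unit apart. Sprr3 fell by 2.09 in the pooled fit (SE 0.34, adjusted p = 0.000256), with differences of -0.91 in KHR and -3.28 in KR tumours.

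Cldn17, a tight junction claudin, was at 8.73, 8.42, 7.74, 9.03 and 7.87 in KHR-N-/- tumours, against 9.97, 10.09, 9.38 and 9.90 in KHR-N+/- tumours. KR-N-/- tumours had 7.96, 7.40, 7.78 and 7.26, against 9.99, 10.06, 9.95, 10.25 and 10.69 in KR-N+/- tumours. Neither type showed overlap, and Cldn17 fell by 2.03 (SE 0.20, adjusted p = 8.25e-06).

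Pglyrp4, which recognises bacterial cell walls, had 6.36, 5.91, 6.22, 5.96 and 5.55 in KHR-N-/- tumours, against 8.23, 6.89, 6.70 and 7.25 in KHR-N+/- tumours. In KR-N-/- tumours it had 5.29, 4.91, 5.01 and 4.64, against 6.53, 6.87, 6.79, 7.09 and 7.50 in KR-N+/- tumours. It fell by 1.63 (SE 0.19, adjusted p = 1.91e-05) without overlap in either type, and its other probes gave -0.60 and -1.19.

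Besides Notch1 itself, the 8 other genes of the 15 largest falls were Ankk1 (-1.60), 2300002M23Rik (-1.60), Prss22 (-1.59), Fxyd4 (-1.52), Uox (-1.49), Aldh1a3 (-1.48), Atp12a (-1.46) and Pbp2 (-1.44). Prss22 is a secreted tryptase-like protease, Fxyd4 a small regulator of the sodium pump and Atp12a a proton pump of epithelia. Uox degrades urate, and Aldh1a3 makes retinoic acid from retinal. Pbp2 was detected on 0 of 4 KR-N-/- arrays, so its level there is only bounded by background. Within both types the N-/- and N+/- tumours did not overlap for 4 of the 15 rising and 5 of the 15 falling genes, and over all 9434 genes this held for 144 higher (1.53%) and 80 lower (0.848%).

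**Figure D2:**
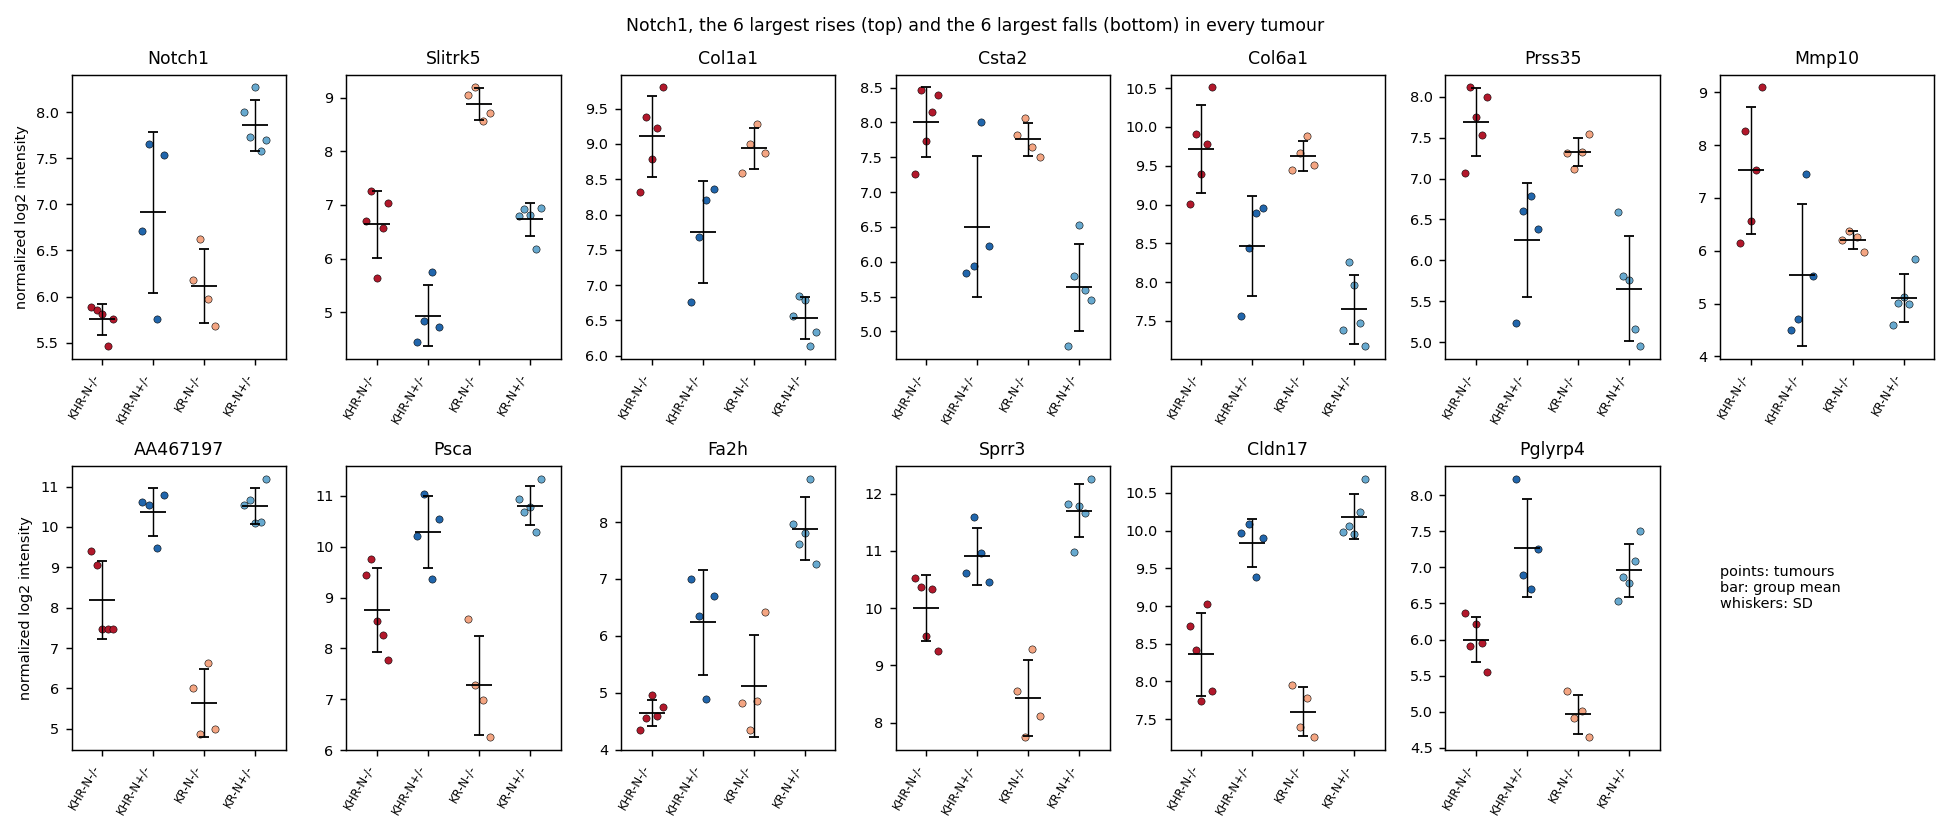
Normalized log2 intensity (vertical axis of each panel) of Notch1, the 6 largest rises in the top row and the 6 largest falls in the bottom row. Points are tumours of the 4 groups, bars are group means and whiskers are SD. Notch1 shows the single KHR-N+/- tumour at 5.76 beside the KHR-N-/- tumours, and AA467197 in KR tumours shows the widest gap.

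Promoters of these 12 genes, rises and falls alike, were searched for 3 motifs. Each gene had been chosen for moving in the same direction in both tumour types. The motifs were the RBPJ core TGGGAA, the AP-1 motif TGANTCA and the grainyhead motif AACCGGTT, on both strands. RefSeq promoters (build GRCm38.p6) were at hand for 8 of the 12, and 4 of these held a match in the 250 bases before the gene's start. They are shown from 5′ to 3′ on the strand of the gene, with the match in capitals. The window of Col6a1 is chr10:76726045-76726294 (minus strand), with an AP-1 match that starts 90 bases before the gene. Those of Mmp10, chr9:7502092-7502341 (plus strand), and AA467197, chr2:122637637-122637886 (plus strand), hold an AP-1 match at 63 and 73 bases. The window of Cldn17, chr16:88506979-88507228 (minus strand), holds the RBPJ core at 117 bases.
Col6a1: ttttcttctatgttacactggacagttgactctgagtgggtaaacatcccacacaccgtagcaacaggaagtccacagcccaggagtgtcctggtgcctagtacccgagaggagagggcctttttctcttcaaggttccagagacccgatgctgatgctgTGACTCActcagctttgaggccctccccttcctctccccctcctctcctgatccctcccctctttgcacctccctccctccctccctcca
Mmp10: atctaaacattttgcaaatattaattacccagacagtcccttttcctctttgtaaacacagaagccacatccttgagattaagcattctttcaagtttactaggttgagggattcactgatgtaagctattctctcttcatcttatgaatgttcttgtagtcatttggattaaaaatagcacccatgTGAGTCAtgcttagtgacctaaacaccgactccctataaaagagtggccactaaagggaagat
AA467197: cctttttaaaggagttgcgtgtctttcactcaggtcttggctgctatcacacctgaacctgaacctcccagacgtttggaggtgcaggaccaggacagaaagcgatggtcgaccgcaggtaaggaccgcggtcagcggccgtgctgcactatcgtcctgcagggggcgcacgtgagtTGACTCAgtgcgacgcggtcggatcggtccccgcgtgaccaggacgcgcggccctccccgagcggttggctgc
Cldn17: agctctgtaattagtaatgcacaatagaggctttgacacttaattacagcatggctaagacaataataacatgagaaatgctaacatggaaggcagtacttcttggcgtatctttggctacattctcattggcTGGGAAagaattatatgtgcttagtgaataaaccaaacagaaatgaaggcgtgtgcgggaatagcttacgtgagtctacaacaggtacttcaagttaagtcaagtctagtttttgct
Over windows of 300 bases that also take in the start of the transcript, the RBPJ core was found for 26.5% of 891 genes that rose, 29.1% of 688 that fell and 27.1% of all 7653 tested genes with a promoter. The AP-1 motif was found for 7.74%, 10% and 7.32%, and the grainyhead motif for 0.337%, 0.436% and 0.314%, in the same order. A match is a description of these letters and not a site of binding.

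Gene lists were described by how many of their measured members rose or fell, beside the 11.7% and 9.09% of all genes and a median difference of 0.03 over all genes. Lists share some members. Basal keratinocyte and hemidesmosome genes, which hold the epithelium on its basement membrane, rose in 17 of 22 measured members and fell in 0, with a median difference of 0.62. The anchoring fibril collagen Col7a1 rose by 1.33, the integrin subunits Itga3 and Itgb4 by 1.17 (SE 0.18, adjusted p = 0.000154) and 0.99, the laminin chain Lamb3 by 1.11 and the basement membrane collagen Col4a1 by 1.08. The 5 members that did not pass were Trp63 (0.31), Cd44 (0.24), Cd151 (0.13), Bcam (0.11) and the basal keratin Krt14 (0.08), named after their values were seen. The other probes of Cd44 and Cd151 gave values below 0. The mean level of the list was 9.03 ± 0.26 over the 5 KHR-N-/- tumours and 8.49 ± 0.29 over the 4 KHR-N+/- tumours (± SD). In the KR type it was 9.31 ± 0.08 over the 4 KR-N-/- tumours and 8.58 ± 0.16 over the 5 KR-N+/- tumours (± SD). With median scaling 0 of the 17 calls were left, and the median was 0.56.

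Collagens and fibroblast matrix genes rose in 29 of 39 members and fell in 0, with a median of 0.63. Besides Col1a1 and Col6a1, Col5a1 and Col6a2 rose by 1.28 and 1.27, and Sparc, a secreted collagen-binding protein, by 1.12 (SE 0.16, adjusted p = 6.48e-05). The mean level was 7.50 ± 0.23 over the 5 KHR-N-/- tumours and 6.90 ± 0.28 over the 4 KHR-N+/- tumours (± SD). In the KR type it was 7.49 ± 0.11 over the 4 KR-N-/- tumours and 6.78 ± 0.14 over the 5 KR-N+/- tumours (± SD). The N-/- and N+/- tumours did not overlap on this mean in either type, where KHR-N+/- replicate 1 was the lowest of all at 6.49. With median scaling 2 members passed. Without KHR-N+/- replicate 3, KR-N+/- replicate 1 and KHR-N+/- replicate 1 together 26 rose.

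The list of matrix proteases and their inhibitors rose in 12 of 32 members and fell in 3, with a median of 0.16. These counts take proteases and inhibitors together. The leading rises were those of secreted metalloproteinases. Next to Mmp10, Mmp9 and Mmp13, the stromelysin Mmp3 rose by 1.18 (SE 0.21, adjusted p = 0.000676) and Mmp11 by 1.09, which was detected on 2 of 5 KR-N+/- and 3 of 4 KHR-N+/- arrays. With median scaling 1 member rose. The EMT transcription factors and cadherins list, which holds genes tied to epithelial-mesenchymal transition, rose in 8 of 14 members, led by the transcription factors Twist2 (0.88) and Tcf4 (0.71), the cadherin Cdh13 (0.87, other probe 0.27), the integrin Itga5 (0.64) and the filament protein Vim (0.54). None of the 14 fell, and with median scaling 0 rose. Foxc2 and the cadherins Cdh2 and Cdh11 of this list did not pass the detection filter. Which cells of the tumours carry these changes was not tested.

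Surface mucosal epithelium genes fell in 24 of 39 members and rose in 0, with a median of -0.62. This list was written with results of KR tumours in view, among them those of AA467197, Psca, Fa2h, Sprr3 and Cldn17, so its direction is no independent evidence. Its mean level was 8.67 ± 0.17 over the 5 KHR-N-/- tumours and 9.22 ± 0.18 over the 4 KHR-N+/- tumours (± SD). In the KR type it was 8.21 ± 0.12 over the 4 KR-N-/- tumours and 9.29 ± 0.105 over the 5 KR-N+/- tumours (± SD), without overlap in either type. With median scaling 12 of its members fell.

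Suprabasal and cornified envelope genes, which build the outer protein shell of differentiated keratinocytes, fell in 14 of 41 members and rose in 0, with a median of -0.34. After Sprr3 the largest falls were those of the mucosal keratin Krt4 (-1.26), the late envelope gene Lce3a (-1.24), Sprr2f (-0.96) and the cornifelin gene Cnfn (-0.93, SE 0.14, adjusted p = 9.99e-05). The skin-type differentiation genes Krt1 (-0.04), Krt10 (0.12), Lor (0.04) and Ivl (-0.27) did not pass and were named after their values were seen. With median scaling 3 members fell, and the median was -0.43.

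**Figure D3:**
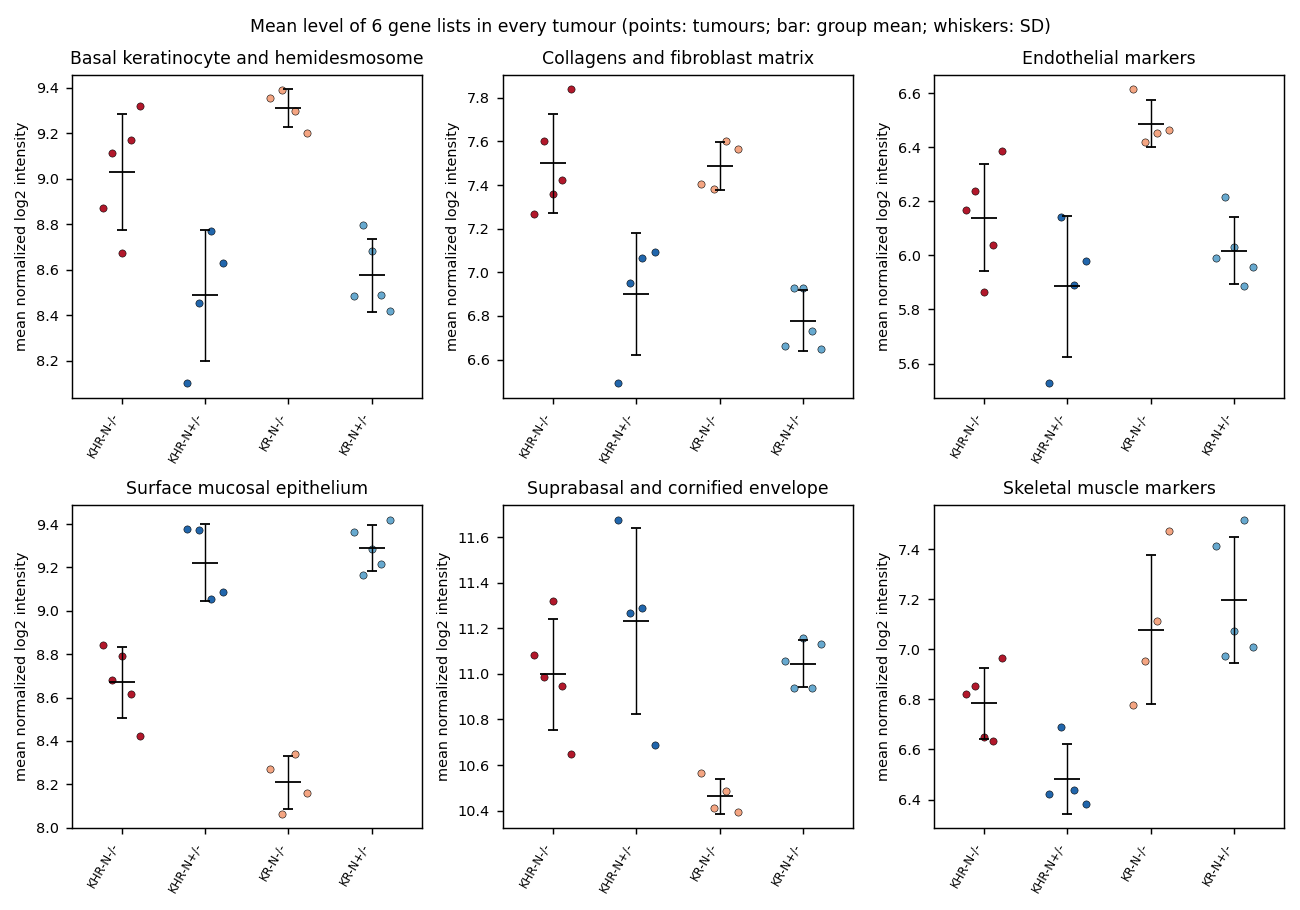
Mean normalized log2 intensity of the measured members of 6 lists (vertical axes) in every tumour of the 4 groups, with group means as bars and SD as whiskers. The Basal keratinocyte, Collagen and Endothelial lists are higher and the Surface mucosal and Suprabasal lists lower in the N-/- means of both types. In the KHR type the N-/- and N+/- tumours overlap on the Basal keratinocyte, Endothelial and Suprabasal lists. The Suprabasal list ran from 10.65 to 11.32 in KHR-N-/- and from 10.69 to 11.68 in KHR-N+/- tumours. Skeletal muscle markers averaged 6.79 in KHR-N-/- against 6.48 in KHR-N+/-, and 7.08 in KR-N-/- against 7.20 in KR-N+/- tumours.

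Stress and hair keratins fell in 12 of 24 members and rose in 0, with a median of -0.48. On the mean level of the list the N-/- and N+/- tumours overlapped in both types. It ran from 6.235 to 6.487 in KHR-N-/- against 6.395 to 7.193 in KHR-N+/- tumours. In KR-N-/- tumours it ran from 6.353 to 7.282, against 6.942 to 7.944 in KR-N+/- tumours. The hair-type keratins Krt34, Krt86, Krt71 and Krt33a fell by 1.22, 1.17, 1.16 and 1.12, and the keratin-associated gene Krtap13-1 by 1.05 (SE 0.31, adjusted p = 0.0186), which was detected on 2 of 5 KHR-N-/- and 3 of 4 KR-N-/- arrays. The count of falls depended on the processing. It was 7 with no background correction, without the detection filter or over genes detected on all 18 arrays, 4 with the authors' values, 3 with all 23 arrays in the fit, 1 with median scaling and 4 when the 3 tumours that stood apart were left out.

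Stefins, serpins, kallikreins and Spinks, which are proteases of the outer epithelium and inhibitors of proteases, went both ways. Of 36 members 18 fell and 7 rose, with a median of -0.27. The stefins Csta2 and Cstdc4 (1.19) led the rises and the kallikreins Klk14 (-1.39), Klk10 (-1.23) and Klk9 (-1.17) the falls. With median scaling 5 fell and 1 rose.

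Kallikreins are secreted serine proteases that help to shed surface cells, and their genes lie side by side. In RefSeq gene order the 8 consecutive tested genes Klk14, Klk13, Klk11, Klk10, Klk9, Klk8, Klk7 and Klk6 all fell, which was the longest of 11 runs of at least 4 neighbouring calls in 1 direction among the 9430 genes with a place in that order. This run was singled out after its values were seen. The differences were -1.39, -1.02, -0.52, -1.23, -1.17, -0.23, -0.60 and -1.11 in that order. Klk14, Klk13 and Klk10 did not overlap between N-/- and N+/- tumours in either type. Klk10 had the smallest adjusted p (8.72e-06, SE 0.13). Klk8 changed least (adjusted p = 0.0355). Of the 8 promoters 4 held the RBPJ core, beside 27.1% of all.

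**Figure D4:**
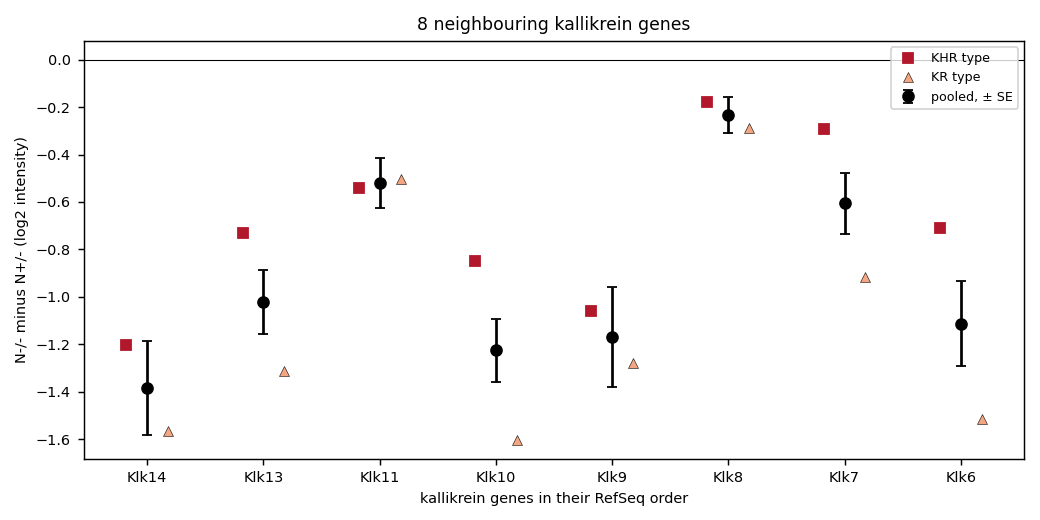
N-/- minus N+/- difference (log2 intensity, vertical axis) of 8 kallikrein genes in their RefSeq order. Black points are pooled differences with SE, red squares KHR-type and orange triangles KR-type differences. Every point lies below 0, from -1.39 for Klk14 to -0.23 for Klk8 in the pooled values.

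Another run of falling neighbours held the late envelope genes Lce1i, Lce1l, Lce3a, Lce3b and Lce3c, at -0.64, -0.76, -1.24, -0.56 and -0.49. A further one held S100a7a, S100a8, S100a9 and Pglyrp4. Copies of the Lce and S100a families are alike in sequence, so a probe may read more than 1 of them. These runs too were picked after their values were seen.

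Epithelial transcription factors fell in 10 of 28 members and rose in 2, with a median of -0.17. Elf5 and Elf3, ETS-family factors of epithelia, fell by 1.40 (SE 0.18, adjusted p = 4.27e-05) and 0.67, and the grainyhead-like factor Grhl3, needed for the skin barrier, by 0.62. The forkhead factors Foxq1 and Foxe1 fell by 0.62 and 0.56. Elf5 was detected on only 1 of 4 KR-N-/- arrays, and its other probe gave -0.27. Desmosome and epithelial adhesion genes fell in 5 of 23 members, the claudins Cldn1 (-0.80) and Cldn4 (-0.48), the desmosomal cadherins Dsg3 (-0.55) and Dsc1 (-0.39), and occludin, Ocln (-0.47), and 0 rose. With median scaling 1 transcription factor fell. The 2 rises of transcription factors became 4 without KHR-N-/- replicate 3 or KHR-N+/- replicate 4.

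Retinoid genes fell in 8 of 18 members and rose in 2, with a median of -0.18 that was -0.001 with the authors' values. Aldh1a3, which makes retinoic acid, fell by 1.48 (SE 0.16, adjusted p = 1.02e-05), the retinol transporter Stra6 by 0.99, the retinoic acid-binding Crabp2 by 0.86 and the retinol dehydrogenase Rdh9 by 0.64, while the other binding protein Crabp1 rose by 1.36. The count of falls was 5 without KHR-N+/- replicate 1 and 1 with median scaling.

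Sebaceous and adipose lipid genes fell in 11 of 23 members and rose in 0, with a median of -0.27. Cidea fell by 0.93, the fatty acid desaturases Scd2 and Scd1 by 0.71 and 0.67, the elongase Elovl3 by 0.64 and the acyl-CoA synthetase Acsbg1 by 0.64. Elovl3 was detected on 0 of 5 KHR-N-/- and 1 of 4 KR-N-/- arrays, so its level in KHR-N-/- tumours is only bounded by background and the size of its fall is uncertain. With median scaling 0 of these calls were left.

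Alarmins and antimicrobial proteins, which epithelia release under stress, fell in 10 of 24 members and rose in 1, with a median of -0.40. S100a7a fell by 1.40 (SE 0.19, adjusted p = 4.73e-05), the iron-chelating lipocalin Lcn2 by 1.34 and the defensins Defb6 and Defb14 by 0.95 and 0.83, and Saa3, an acute phase protein, rose by 1.08. Of the 12 measured neutrophil markers S100a8 and S100a9, which keratinocytes also make, fell by 0.59 and 0.60, and the others did not pass. MHC class I genes fell in 5 of 17 members, among them the light chain gene B2m (-0.82) and H2-T23 (-0.78), and 1 rose. With median scaling 2 alarmins and 0 class I genes fell.

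**Figure D5:**
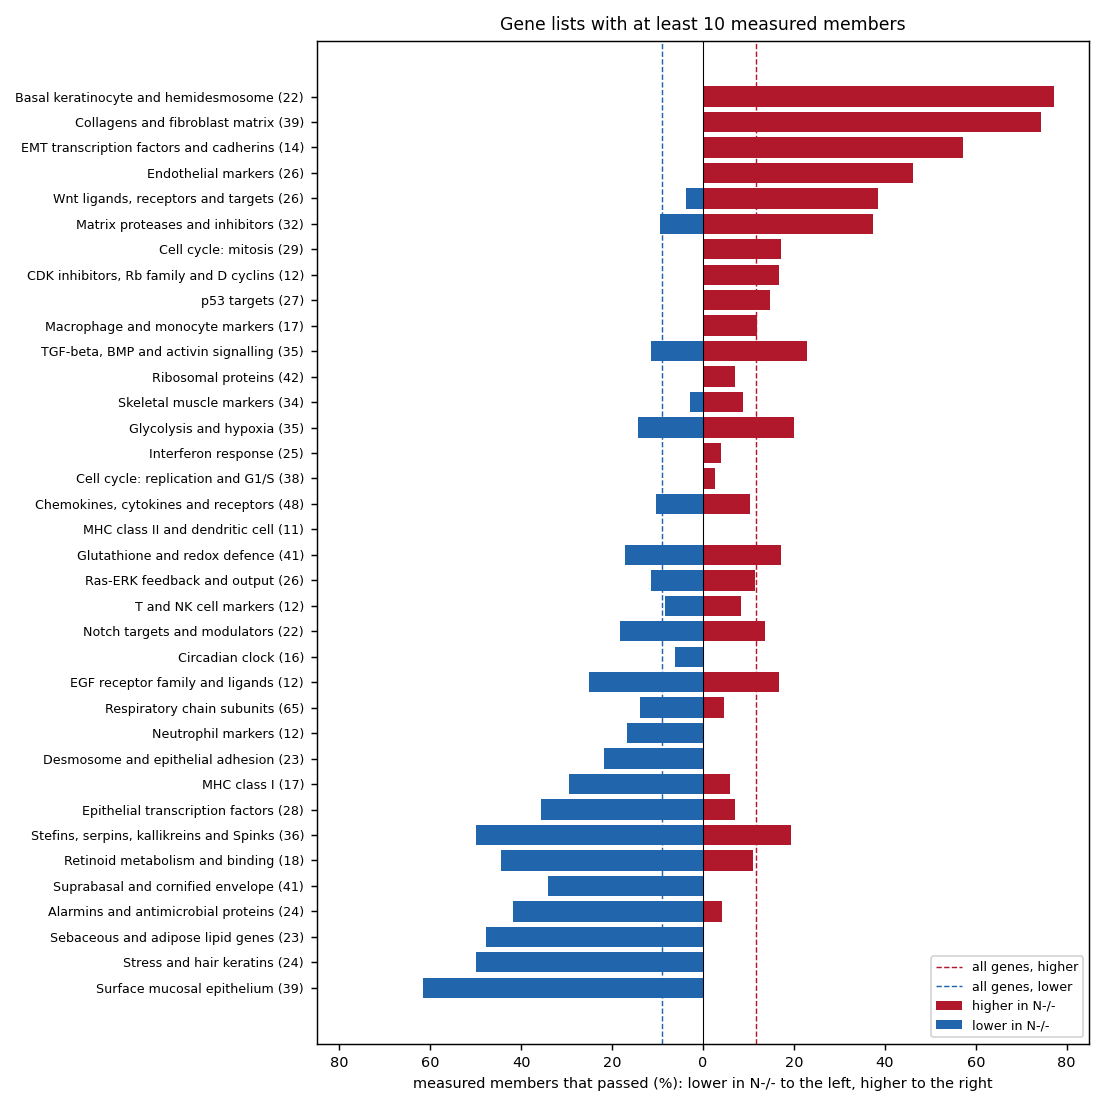
Share of the measured members (number in brackets) of each drawn list that passed the pooled test, higher in N-/- tumours to the right and lower to the left (horizontal axis, percent). Dashed lines mark the shares of all genes, 11.7% higher and 9.09% lower. Lists with at least 10 measured members are drawn, in the order of their share higher minus their share lower, with the Basal keratinocyte list (17 of 22 higher) first and the Surface mucosal list (24 of 39 lower) last.

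Genes of the Notch pathway did not move one way. Among receptors and ligands Notch1 fell and Notch3 was lower by 0.26 (SE 0.07, adjusted p = 0.0123), while Notch4, an endothelial receptor, and the ligand Jag2 rose by 0.58 and 0.62 (adjusted p = 0.0116 and 0.00095). Of 6 measured members 2 rose and 2 fell. Notch targets and modulators rose in 3 and fell in 4 of 22 members, with a median of 0.09. The Deltex genes Dtx3 and Dtx2 rose by 0.77 and 0.45 (other Dtx2 probes 0.16 and 0.41), and Fbxw7, part of a ubiquitin ligase that degrades cleaved Notch, rose by 0.49 (other probe 0.09). The feedback regulator Nrarp and the gamma-secretase subunit Psenen fell by 0.38 and 0.36. The direct target Hes1 was lower by 0.32 (adjusted p = 0.0139) and Hey1 was at 0.12 (adjusted p = 0.414), both named after their values were seen. With median scaling 1 receptor or ligand passed, and 0 targets did.

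Wnt genes rose in 10 of 26 members and fell in 1, with a median of 0.14. The ligands Wnt3a and Wnt10a rose by 1.19 (SE 0.13, adjusted p = 8.25e-06) and 0.74, the secreted Dkk3 by 1.02, the receptor Fzd10 by 0.99, with 0.16 and 0.14 for its other probes, and Axin2, a feedback inhibitor and target of the pathway, by 0.65. With the authors' values 6 rose, and with median scaling 2. Without KHR-N+/- replicate 3 the count of falls was 3. TGF-beta, BMP and activin genes rose in 8 of 35 members and fell in 4, with a median of 0.09. The activin antagonist Fst rose by 1.18 (SE 0.14, adjusted p = 2.42e-05), the procollagen protease Bmp1 by 0.99 and the ligands Tgfb3 and Tgfb1 by 0.90 and 0.51. Ltbp1, which binds latent TGF-beta, rose by 0.59, with -0.01 for its other probe. The 4 falls of this list became 1 without KR-N-/- replicate 2 and 2 without KHR-N+/- replicate 1, KR-N-/- replicate 3, KR-N-/- replicate 4 or KR-N+/- replicate 2.

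The EGF receptor family list had 3 falls and 2 rises in 12 members. The ligands Btc and Hbegf fell by 1.02 (SE 0.17, adjusted p = 0.00025) and 0.83, and the third fall was that of the receptor inhibitor Errfi1. Among 26 Ras-ERK genes 3 rose and 3 fell. The immediate early factor Egr2 and the phosphatase Dusp4 fell by 1.06 and 0.77 (other Dusp4 probe -0.12), and the ETS factor Etv4 rose by 0.77. Of 48 chemokine and cytokine genes 5 rose and 5 fell, shares close to those of all genes. The alarm cytokine Il1a fell by 0.96 and its antagonist Il1rn by 0.92 (other probe -0.32), whereas Il24, Tslp and the lymphatic chemokine Ccl21a rose by 0.85, 0.81 and 0.70. The 5 chemokine and cytokine falls became 8 without KHR-N+/- replicate 4, 2 without KR-N-/- replicate 3 and 3 without KHR-N+/- replicate 2, KR-N+/- replicate 2 or KR-N+/- replicate 5. The 3 Ras-ERK rises became 1 without KHR-N-/- replicate 5, KHR-N+/- replicate 1 or KR-N-/- replicates 1, 2 or 4.

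Counts of cell cycle genes depended on single tumours. Of 38 replication and G1/S genes 1 rose, Rfc2 (0.44), and 0 fell. The count of rises became 8 without KHR-N+/- replicate 4, 5 without KHR-N+/- replicate 2, 3 without KHR-N-/- replicate 3 and 9 with the mean level of skeletal muscle markers as a covariate. Of 29 mitosis genes 5 rose, led by the kinases Aurka (0.50) and Plk1 (0.48), and 0 fell. That count ran from 2 without KHR-N+/- replicate 1, KR-N-/- replicate 1 or KR-N-/- replicate 2 to 15 without KHR-N+/- replicate 4, and it was 0 with median scaling. The mitosis list averaged 7.23 in KHR-N-/- against 7.26 in KHR-N+/- tumours, and 6.94 in KR-N-/- against 6.52 in KR-N+/- tumours. In the same order the replication and G1/S list averaged 7.30, 7.40, 7.14 and 6.80. The means of both lists were thus higher in N-/- tumours of the KR type only. Of the 29 mitosis genes 12, and of the 38 replication and G1/S genes 15, differed in the same direction in both types. Of 27 p53 target genes 4 rose and 0 fell. Of 12 genes of CDK inhibitors, the Rb family and D cyclins 2 rose, the CDK inhibitor Cdkn1c (0.58) and the D cyclin Ccnd3 (0.38, other probe -0.06), and 0 fell. Circadian clock genes had 0 rises and 1 fall, that of the deadenylase Noct (-0.80), among 16. Of 42 ribosomal protein genes 3 rose, Rps25 (0.35), Rpl28 (0.32) and Rps10 (0.25), and 0 fell, with 5 rises without KHR-N+/- replicate 3 or KR-N-/- replicate 3.

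Markers of other cell types moved with the groups to differing degrees. With the mean level of skeletal muscle markers as a covariate 2105 genes passed, 1189 higher and 916 lower, with 14 rises of mitosis genes and 11 falls of redox genes. The part of the other cell types in the results was not tested. Endothelial markers rose in 12 of 26 measured members and fell in 0 (median 0.35), led by Mmrn2 (0.87), Egfl7 (0.70), Esam (0.64), Eng (0.59) and Tek (0.59). Their summed linear level ran from 2258 to 3555 in KHR-N-/- against 1846 to 2819 in KHR-N+/- tumours, and from 3408 to 4135 in KR-N-/- against 2480 to 3173 in KR-N+/- tumours. All 3 measured melanocyte markers, Pmel (0.66), Dct (0.62) and Tyrp1 (0.33), rose, at low levels. Pmel and Tyrp1 were detected on 0 of 5 KR-N+/- arrays, 5 of 8 markers on the array, Tyr, Mlana and Mitf among them, did not pass the detection filter, and the library labelled KHR-N+/- replicate 3 (mean 4.97) lay with the KHR-N-/- tumours (4.71 to 5.17). The melanocyte count was 0 with the authors' values and with median scaling.

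Skeletal muscle markers rose in 3 of 34 members and fell in 1 (median 0.07). The troponins Tnnc1 and Tnnt1 and the myosin Myh8 rose by 0.88, 0.59 and 0.61 (other Myh8 probe 0.21), and the fast myosin Myh4 was lower by 0.45. The 3 rises became 6 without KHR-N-/- replicate 4 and 5 without KHR-N+/- replicate 2 or KR-N+/- replicate 1. Macrophage and monocyte markers rose in 2 of 17, Stab1 (0.69) and Ly6c1 (0.50), and fell in 0, with 5 rises without KR-N-/- replicate 2. Mast cell markers rose in 1 of 8, the chymase Cma1 (0.33), T and NK cell markers in 1 of 12, Thy1 (0.97), which fibroblasts also express, with Cd3e lower by 0.26 (not above background on any KR-N-/- array), and MHC class II and dendritic cell genes in 0 of 11, of which 0 fell, or 2 without KHR-N+/- replicate 4. Bone and cartilage markers had Ctsk higher by 0.56 and Sox9 lower by 0.58 among 5. Of the nerve markers Cnp rose by 0.33 (other probe 0.07) and Egr2 fell, among 7. Neither the 2 measured salivary gland markers nor the 1 measured B cell marker passed.

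Metabolic lists held calls in both directions. Glycolysis and hypoxia genes rose in 7 and fell in 5 of 35, with the stress gene Ddit4 at 0.90 (SE 0.11, adjusted p = 3.32e-05) and the glycolysis regulator Pfkfb4 at -0.83 (other probe -0.15). The 5 falls became 3 without any 1 of KHR-N-/- replicates 1 and 5, KHR-N+/- replicate 1, KR-N-/- replicates 1 and 4 and KR-N+/- replicates 1 and 4. Glutathione and redox genes rose in 7 and fell in 7 of 41, with the secreted peroxidase Gpx3 at 0.92, the transferases Gsta2 and Gstm5 at -0.73 and -0.53, Gpx2 at -0.65 and Nqo1 at -0.50. Respiratory chain subunits rose in 3 and fell in 9 of 65, led by Uqcrb (-0.51). The count of falls was 3 to 5 without KHR-N+/- replicate 1 or any of KR-N-/- replicates 1, 2 and 4. The mean of the respiratory chain list was lower in N-/- tumours of the KR type only. It was 9.251 in KHR-N-/- against 9.208 in KHR-N+/- tumours, and 9.100 in KR-N-/- against 9.295 in KR-N+/- tumours. Of its 65 members 37 differed in the same direction in both types, beside 69.2% of all genes. Of 25 interferon response genes 1 rose, Ly6e (0.29), and 0 fell.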

How the data were processed

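The deposited file of scanner readings holds, per array and probe, the average intensity of the beads (linear and, judged from its values, without normalization), the count of beads and a detection p-value, per the file headers. Its 23 columns of standard errors were left out. A second deposited file has the authors' own processed intensity values, with scaling steps that no source used here gives, and served only as an alternative. Per the labels' protocols RNA was extracted with Trizol and labelled with biotin. The submitters' processing notes name GenomeStudio and Partek.

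The deposited intensities of 23 arrays were background-corrected with normexp (negative controls placed by detection p-values, offset 16), quantile-normalized and log2-transformed with limma 3.58.1 in R 4.3.3, where files were read with data.table, version 1.17.8. No log2 values deposited by the authors were used. Of 25697 probes 23978 have 1 gene symbol, 0 several and 1719 none in the platform annotation, and 23962 were found in RefSeq. Probes detected (p-value under 0.05) on at least 4 of 18 arrays were kept (13338, of which 12562 named). The probe with the highest mean stood for a gene, which gave 9434 genes, and 7159 other named genes were not tested. No array was a copy of another (pairwise correlations 0.938 to 0.993).

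The additive model held tumour type and Notch1 (lmFit and eBayes, 15 residual degrees of freedom), with Benjamini-Hochberg adjustment over all genes. With groups of 5 and 4, the pooled difference is the plain mean of both within-type differences. The interaction used the same values. Slide positions were not used. On simulated data the fit over 9434 genes recovered 78.6% of log2 changes of 0.5 and 99% of changes of 1, with 4.28% of calls false. Each of 20 draws changed 200 genes, with noise drawn independently for each gene on the normalized scale. Shifts shared by genes or arrays were not simulated, so 4.28% is not the false share among the calls in the tumours.

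The 43 lists hold 1498 entries, of which 1339 are on the array and 1023 were measured. The groups, lists and genes were chosen with earlier results of these data known. The text names Notch1, the 15 largest rises and falls among calls with the same direction in both types, up to 5 calls per list (the 3 largest changes where fewer than 2 passed), and 5 genes by interaction p. Alternatives changed the background correction, scaling, filter, probe choice, variance model, covariates, replicate block, bead number bands (divided at 31 and 38 beads) and the arrays included.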

Additional observations from a re-analysis of the deposited data

Results flagged for a closer look

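Dixon's outlier check covered the 15 largest rises, the 15 largest falls, the 5 genes with the smallest interaction p, mean array intensity and detected probes. Sprr3, which is among both the falls and the interaction genes, was counted once. Genes named only through a list were not checked. Among the resulting 144 groups of 4 or 5 tumours, 3 (2.08%) held a tumour whose gap to its nearest neighbour exceeded Dixon's 95% critical value. Chance gives about 1 in 20. Slitrk5 in KR-N+/- replicate 4 was low at 6.186, against 6.788 to 6.939 in the other KR-N+/- tumours. Col26a1 was high in KHR-N-/- replicate 5 at 5.996, against 4.37 to 4.837 in the other KHR-N-/- tumours, and high in KR-N+/- replicate 3 at 4.67, against 4.164 to 4.201 in the other KR-N+/- tumours. The cause was not tested.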

How the results depend on the processing

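No gene named by the rule reversed its direction under any alternative. The count of genes in the pooled effect was 1965 (1107 higher, 858 lower) and stayed within 1.5 times of this under the alternatives other than median scaling, which gave 73 (15 higher, 58 lower), all among the 1965. Leaving out 1 tumour gave 1562 to 2237 genes, 873 to 1292 higher and 673 to 945 lower. Leaving out the 3 tumours that stood apart, a choice made after seeing the data, gave 1457, of which 1308 were among the 1965. All 3 were N+/- tumours, and without them the pooled difference is no longer the plain mean of both types. For the interaction, where 0 passed, 11 passed with the authors' processed values, 2 without background correction, 1 without the 3 tumours and 0 to 4 with 1 tumour left out. The correlation of 0.679 between tumour types became 0.629 under median scaling, 0.729 without background correction, 0.722 over genes detected on all 18 arrays, 0.487 without the 3 tumours and 0.56 to 0.708 with 1 tumour left out. Notch1 ran from -1.654 to -1.362 with 1 tumour left out. Under median scaling 4 of 43 lists changed the sign of their median (CDK inhibitors, Glycolysis and hypoxia, Nerve and Schwann cell, Ras-ERK), each with a median between -0.078 and 0.069. Median scaling left 0 of the calls in the endothelial, desmosome, TGF-beta, EGF receptor, p53, CDK inhibitor, ribosomal, circadian, skeletal muscle, macrophage, mast cell, T cell, bone, glycolysis, glutathione and respiratory chain lists. Apart from the replication, macrophage, Wnt, transcription factor and MHC class II lists, list counts of 2 or fewer moved by at most 1 with 1 tumour left out. With bands of bead number as a block, added after seeing the data, 1042 genes were higher and 820 lower, and 1797 of the 1862 were among the 1965. The cause of these shifts was not tested.

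No label says that the replicate numbers mark a shared animal, batch or day, and tumours were not treated as paired. The numbers went with the average count of beads behind a probe, however. It was 27 to 30.5 for replicate 1, 30.7 to 39.2 for replicates 2 and 3, and 39.5 to 40.4 for replicates 4 and 5. What lies behind this was not tested. The deviations of same-numbered tumours from their group means correlated with a median of 0.053 over 25 pairs (-0.238 to 0.284), 10 of them over 0.1, against 0.002 over 96 pairs with unlike numbers, 14 of them over 0.1, and 9 of 18 tumours correlated best with their own number. With the replicate block 1859 genes passed, 1043 higher and 816 lower, and 5 in the interaction.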
